A study of Homo sapiens with 8 samples.

Results

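Long intergenic noncoding RNAs carrying a LINC symbol were followed through a block of transcription in SW480 cells. The members were all noncoding RefSeq accessions (prefix NR_) in either of 2 deposited tables whose symbol is LINC followed by a digit. There were 202 such transcripts from 178 genes, of 22468 transcripts in all and of 2767 noncoding ones. Of these, 161 were in the shRBMS1 table, 163 in the shControl table and 122 in both. SW480 is an established human colorectal adenocarcinoma line, which the series text calls a breast cancer line. The cells stably expressed an shRNA that targets RBMS1, which encodes a protein that binds RNA, or a control shRNA, and were treated with alpha-amanitin at 10 µg/mL for 9 h or left untreated (0 h). The labels' treatment protocol names 1 shRNA clone for the knockdown and the series text names 2. The 4 groups (shRBMS1 at 9 h and 0 h, shControl at 9 h and 0 h) held 2 total RNA libraries each, and nothing in the labels ties the libraries of a group to separate cultures.

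Long intergenic noncoding RNAs are made by RNA polymerase II from loci between protein-coding genes, and most are capped and spliced, many also polyadenylated. Alpha-amanitin binds RNA polymerase II and stops new synthesis, so the level left at 9 h relative to 0 h depends on how fast the RNA made earlier is degraded. Many such RNAs are kept in the nucleus at low copy number, and several have been described in colorectal and other carcinomas.

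Each table gave 1 log2 fold change per transcript, 9 h over 0 h, with the libraries already combined by the authors. The tables do not tell depth, abundance or how far libraries of a group differed. No value below could therefore be set against replicate error, no test was possible, and the counts past a size of 1 (2-fold) are descriptions. A value above 0 is relative to the rest of the library and does not show new synthesis. As a scale, MYC, an mRNA of rapid turnover, was at −1.38 in shRBMS1 and −1.44 in shControl cells by the authors' deposited tables. Other short-lived mRNAs of the scale (FOS, JUN, IER2, KLF2 and AXIN2) ranged from IER2 at −0.32 and −0.58 to KLF2 at −2.38 and −2.93. A value above −1 therefore does not mark an RNA as long-lived. The median of 125 ribosomal protein transcripts, from long-lived mRNAs, was 0.39 in shRBMS1 and 0.41 in shControl cells. Of 11 colon epithelial markers 9 were listed, and of 11 markers of other cell types only LYZ, but the tables hold changes and no levels.

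LINC transcripts lay more often above 0 than the rest of the transcriptome. Their median was 0.41 in the shRBMS1 table, with quartiles of −0.38 and 1.10, beside −0.03 for all 20474 transcripts there. In the shControl table the LINC median was 0.15, with quartiles of −0.42 and 0.86, beside −0.04 for all 21328 transcripts. The share above 0 was 62.7% of LINC and 47.9% of all transcripts in shRBMS1 cells, and 57.7% of LINC and 47.6% of all transcripts in shControl cells.

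The excess lay on the high side. In shRBMS1 cells 45 of 161 LINC transcripts (28.0%) were at 1 or above, where the background over all transcripts was 8.65%. In shControl cells 34 of 163 (20.9%) were at 1 or above, beside a background of 8.32%. At −1 or below there were 17 of 161 (10.6%) in shRBMS1 cells, beside 12.9% of all transcripts, and 17 of 163 (10.4%) in shControl cells, beside 13.8%. Over all listed transcripts the low shares were thus near the background or below it and the high shares above it, without a test of either. Among transcripts in both tables the low shares were 9.84% of LINC and 12.2% of all transcripts in shRBMS1 cells. In shControl cells they were 6.56% and 12.2%. The high shares there were 19.7% of LINC and 7.13% of all in shRBMS1 cells, and 14.8% and 6.63% in shControl cells. Close to the limit of 1 in shRBMS1 cells, LINC00629 at 1.01 was just inside and LINC01138 at 0.99 just outside in the authors' deposited table, and in shControl cells LINC02043 at 1.01 was inside and LINC01128 at 0.99 outside. At the limit of −1 in shRBMS1 cells LINC01560 at −1.01 was inside and LINC01881 at −0.98 outside in the authors' deposited table.

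The sign of a median depends on the zero that is chosen. Set relative to ribosomal protein mRNAs, which takes 1 constant from every value of a table, the LINC median was 0.02 in shRBMS1 and −0.26 in shControl cells, beside −0.42 and −0.45 for all transcripts. In shRBMS1 cells 29 LINC transcripts (18.0%) were then at 1 or above, beside 5.50% of all, and 23 (14.3%) at −1 or below, beside 22.6%. In shControl cells 27 (16.6%) were at 1 or above, beside 5.21%, and 28 (17.2%) at −1 or below, beside 24.7%.

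Antisense and divergent RNAs also had medians above 0, and other noncoding classes lay near 0. Antisense RNAs (symbols ending in AS and a digit) had a median of 0.22 over 345 transcripts in shRBMS1 and 0.18 over 370 in shControl cells. Divergent transcripts (symbols ending in DT), which start head to head with a coding gene, had medians of 0.16 over 106 and 0.14 over 112. Hosts of small nucleolar RNAs were at −0.03 over 45 in shRBMS1 and −0.08 over 44 in shControl cells, and noncoding isoforms of coding genes at −0.01 over 858 and 0.03 over 922. Hosts of microRNAs were at −0.02 over 21 in shRBMS1 and −0.04 over 22 in shControl cells. Coding mRNAs were at −0.05 in shRBMS1 and −0.06 in shControl cells. The share at 1 or above in shRBMS1 cells was 28.0% for LINC, 21.4% for antisense and 12.3% for divergent transcripts. In shControl cells these shares were 20.9%, 18.9% and 16.1%. Among transcripts listed in both tables LINC and antisense RNAs lay close together. There the shares at 1 or above were 19.7% for LINC and 18.0% for antisense transcripts in shRBMS1 cells, and 14.8% and 16.7% in shControl cells. The medians on that subset were 0.17 for LINC and 0.19 for antisense transcripts in shRBMS1 cells, and 0.17 and 0.20 in shControl cells. No difference between classes was tested.

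**Figure D1:**
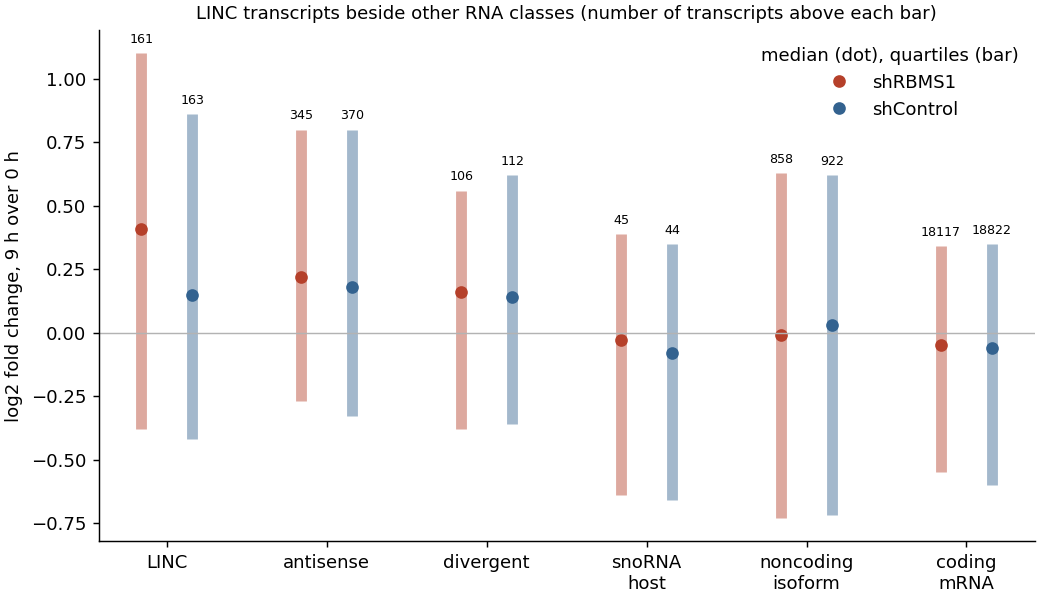
Log2 fold change (9 h over 0 h of alpha-amanitin) of LINC transcripts and 5 other RNA classes, shRBMS1 left of shControl in each pair. Dots are medians, bars span the quartiles over transcripts, and numbers above the bars count transcripts. The upper quartile of LINC transcripts, 1.10 in shRBMS1 and 0.86 in shControl cells, lies above that of the coding mRNAs, 0.34 and 0.35.

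How often a LINC transcript was listed at all differed from other classes. Of 202 LINC transcripts, 80 (39.6%) were in a single table, 39 in that of shRBMS1 and 41 in that of shControl. The share in a single table was 13.9% for all transcripts, 24.3% for all noncoding accessions, 25.6% for antisense, 16.8% for divergent and 12.5% for coding transcripts. No source used here gives the rule by which the authors left transcripts out.

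The LINC transcripts listed for shRBMS1 alone had a median of 1.10. Of these 39, 21 (53.8%) were at 1 or above and 5 (12.8%) at −1 or below, beside 34.5% and 26.1% of all transcripts listed for shRBMS1 alone. These shares were 47.5% and 12.5% for antisense transcripts and 41.0% and 17.2% for all noncoding ones. For LINC transcripts listed for shControl alone the median was 0.12. Of these 41, 16 (39.0%) were at 1 or above, beside 24.8% of all, 29.2% of antisense and 31.5% of noncoding transcripts listed for shControl alone. At −1 or below were 9 of 41, a smaller share than the 578 of 1994 over all. Over all transcripts in a single table the medians were 0.29 in shRBMS1 and −0.15 in shControl cells. Among the 122 LINC transcripts in both tables the median was 0.17 in each cell population. The higher median of the shRBMS1 table thus rested on transcripts that the shControl table did not list.

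The highest value of a transcript listed for shRBMS1 alone was LINC02759 at 10.0 in the authors' deposited table, at the limit of about 10 within which all values lie. LINC00911 followed at 3.37 and LINC01448 at 3.08 in the authors' deposited table. The lowest were LINC00587 at −1.76, LINC01607 at −1.42 and a transcript of LINC00491 at −1.29. For shControl alone, the highest in the authors' deposited table were LINC01495 at 3.28, LINC00613 at 3.18 and LINC01708 at 3.12. The lowest were transcripts of LINC00339 at −5.08 and −2.82 and LINC00525 at −2.44.

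**Figure D2:**
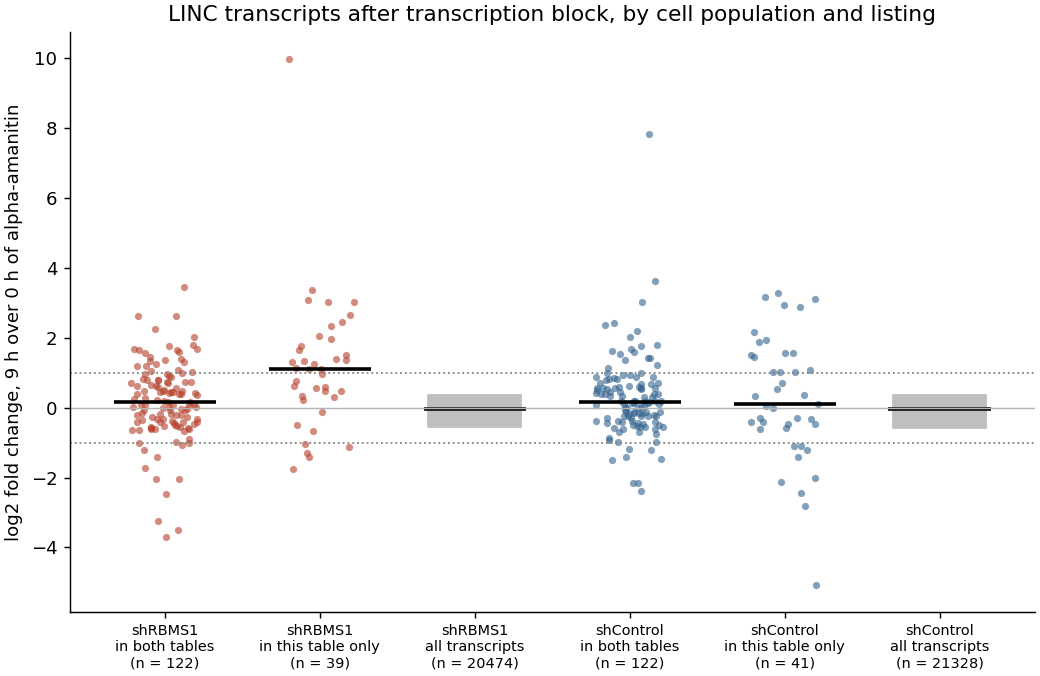
Log2 fold change (9 h over 0 h) of every LINC transcript, 1 point each, split by whether it was listed in both tables or in the one shown, with shRBMS1 left of shControl. Black lines are medians, grey boxes span the quartiles of all transcripts and dotted lines mark 1 and −1. The 39 transcripts listed for shRBMS1 alone have a median of 1.10, the 122 in both a median of 0.17 in each table.

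The tables rest on different libraries at both times. Of 122 LINC transcripts, 87 (71.3%) had the same sign in both, beside a background of 74.4% of 19334 transcripts. Of these, 53 were above 0 and 34 below 0 in both. Across the 122, Pearson's r was 0.26 and Spearman's rho 0.41, beside 0.29 and 0.52 over all 19334 transcripts. Transcripts within a table share their libraries and normalization and are not independent replicates.

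LINC transcripts at −1 or below in both tables numbered 4 of 122 (3.28%), beside a background of 5.72%. LINC01619 was at −1.73 in shRBMS1 and −2.37 in shControl cells by the authors' deposited tables. It lies on chromosome 12 (91984976 to 92142831, GRCh38, minus strand) and shares exon sequence on the same strand with BTG1, a coding gene for an antiproliferative protein, so reads of these genes could not be told apart. LINC02709 (chromosome 11, 9754770 to 9759533) was at −1.40 in shRBMS1 and −1.22 in shControl cells by the authors' deposited tables and lies 1.78 kb from SWAP70. LINC01132 (chromosome 1, 234724042 to 234731643) was at −1.06 and −1.20 by the authors' deposited tables for shRBMS1 and shControl and lies 114 kb from IRF2BP2, a transcriptional corepressor gene. A transcript of LINC01012 (chromosome 6, 27694035 to 27710222), in the histone gene region 97.3 kb from H2BC13, was at −3.50 in shRBMS1 and −1.47 in shControl cells by the authors' deposited tables. LINC01560 was next to this group at −1.01 and −0.93, and its gene span holds an exon of ZNF41 on the opposite strand.

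At 1 or above in both tables were 8 of 122 (6.56%), beside a background of 2.33%, and 8.85% of antisense and 7.07% of divergent transcripts. LINC02753 (chromosome 11, 70056230 to 70065371) overlaps the gene body of ANO1, a calcium-activated chloride channel. It was at 2.27 in shRBMS1 and 2.03 in shControl cells by the authors' deposited tables. LINC02584, 7.06 kb away on the same strand, was listed for shControl alone at 2.88 in the authors' deposited table. LINC00324 (chromosome 17, 8220630 to 8224043), 772 bases from CTC1, a telomere maintenance gene, was at 1.66 and 1.63 by the authors' deposited tables for shRBMS1 and shControl, a centred difference of 0.05. LINC00944 was at 2.64 in shRBMS1 and 1.54 in shControl cells by the authors' deposited tables, LINC02740 at 1.81 and 1.42, LINC01060 at 1.33 and 1.79, and LINC01793 at 1.26 and 1.69. These last 3 lie 728, 305 and 976 kb from the nearest coding gene. LINC00672 was at 2.64 in shRBMS1 and 3.02 in shControl cells by the authors' deposited tables. RefSeq now lists that gene as coding under the symbol LASP1NB, and its accession carried the LINC symbol only through GENCODE. The last of the 8 was a transcript of LINC00847, described with the isoforms.

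The 3′ ends of these transcripts were read because the signal for cleavage and polyadenylation, AATAAA or its variant ATTAAA, lies there and the poly(A) tail is known to protect RNA from exonucleases. The last 60 bases of the paired GENCODE transcript are given 5′ to 3′, with a signal in the last 50 in capitals. The first 3 are from the 4 transcripts at −1 or below in both tables, of which the other is not shown, and the last 4 are those at 1 or above in both for which a paired noncoding transcript was found.
LINC01619: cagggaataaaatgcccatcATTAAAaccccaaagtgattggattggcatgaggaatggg
LINC02709: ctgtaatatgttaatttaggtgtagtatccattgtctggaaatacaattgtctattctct
LINC01132: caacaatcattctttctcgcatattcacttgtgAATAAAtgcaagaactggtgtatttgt
LINC02753: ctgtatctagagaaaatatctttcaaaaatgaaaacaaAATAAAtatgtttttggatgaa
LINC00324: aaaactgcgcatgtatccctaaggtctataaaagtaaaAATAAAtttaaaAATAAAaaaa
LINC01060: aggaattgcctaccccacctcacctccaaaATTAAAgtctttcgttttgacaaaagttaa
LINC01793: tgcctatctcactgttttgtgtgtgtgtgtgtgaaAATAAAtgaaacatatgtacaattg
The sequences from the high group hold a signal in this window, as do LINC01619 and LINC01132 of the low group, and LINC02709 holds none. An annotated end may lie short of the true end. These 7 were picked by their values and leave out members of both groups, so they show the signal and carry no comparison of the groups.

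Over the members the same search could be made for 148 transcripts with a GENCODE transcript of their own. A signal was found in 102 (68.9%), beside 53.2% of antisense, 53.2% of divergent, 47.7% of all noncoding and 71.6% of coding transcripts, counting either hexamer on the transcript strand. LINC transcripts with a signal had a median of 0.54 over 78 values in shRBMS1 and 0.34 over 79 in shControl cells. Those without had medians of −0.01 over 40 and 0.00 over 38. At 1 or above in shRBMS1 cells were 30 of 78 with a signal and 5 of 40 without, and in shControl cells 19 of 79 with a signal and 8 of 38 without. As shares these were 38.5% and 12.5% in shRBMS1 cells and 24.1% and 21.1% in shControl cells. Antisense transcripts had 24.0% with and 17.6% without a signal at 1 or above in shRBMS1 cells, and coding transcripts ran the other way, with 6.25% and 9.83%. Antisense transcripts with a signal had medians of 0.29 in shRBMS1 and 0.35 in shControl cells, and those without 0.04 and 0.00. Coding transcripts had medians of −0.05 with and −0.06 without a signal in shRBMS1 cells. For divergent transcripts the order differed between the tables, with medians of 0.24 with and 0.10 without a signal in shRBMS1 cells, and 0.22 and 0.25 in shControl cells. Among all noncoding accessions the medians were 0.15 with and 0.17 without a signal in shRBMS1 cells, so the LINC order of medians was not there. Their shares at 1 or above did have the LINC order, with 18.2% and 13.3% in shRBMS1 and 15.6% and 13.8% in shControl cells. For divergent transcripts these shares were 13.0% with and 7.69% without a signal in shRBMS1 cells, and 18.4% and 19.5% in shControl cells.

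Transcript length ran with the values when the paired transcripts were cut into 3 length classes of near equal size. The 148 paired transcripts had a median length of 806 bases, from 196 to 16489, beside 1004 for antisense and 2676 for coding transcripts, and a median of 3 exons. The shortest class, up to 587 bases, had a median of 1.10 in shRBMS1 and 0.90 in shControl cells. The middle class had medians of 0.28 and 0.13, and the longest class, over 1593 bases, −0.02 and 0.04. Of the shortest class, 27 of 50 transcripts were in a single table, of the middle class 23 of 49 and of the longest 11 of 49, so length and listing moved together. Among transcripts in both tables the medians by length were 0.73, 0.12 and −0.07 in shRBMS1 cells and 0.57, 0.19 and 0.06 in shControl cells, over 23, 26 and 38 transcripts. Antisense RNAs of the same length ranges had medians of 0.65, 0.19 and 0.02 in shRBMS1 cells and 0.50, 0.21 and 0.03 in shControl cells. Coding mRNAs of these lengths were at 0.32, 0.18 and −0.11 in shRBMS1 cells. Antisense and coding transcripts thus ran in the same order by length. Among transcripts in both tables the shortest antisense RNAs had medians of 0.73 in shRBMS1 and 0.52 in shControl cells, equal to or within 0.05 of those of the shortest LINC transcripts. The part of library preparation or of low read numbers in it was not tested.

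**Figure D3:**
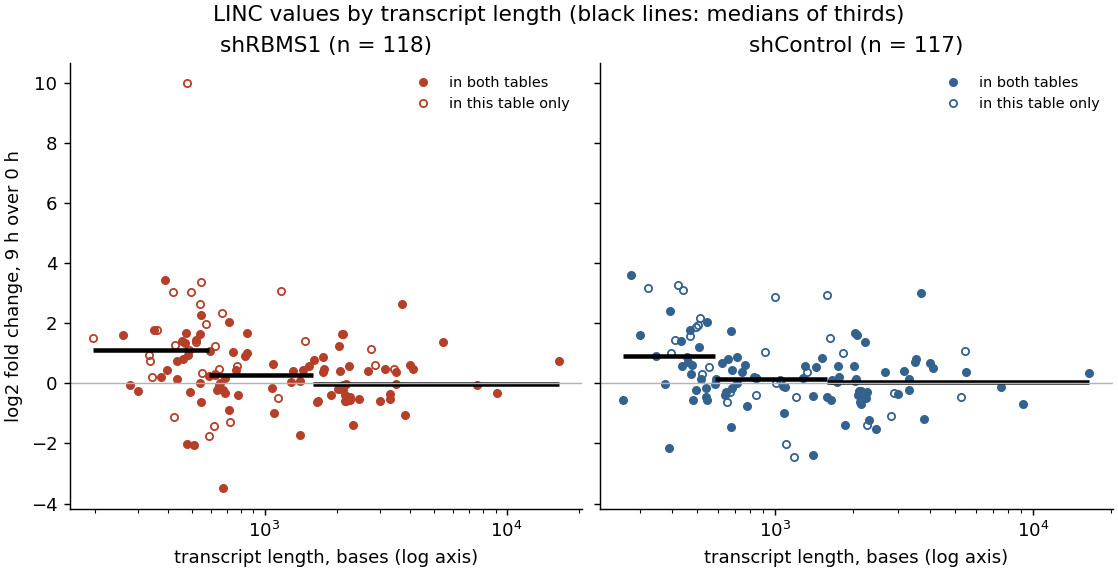
Log2 fold change (9 h over 0 h) of LINC transcripts against the length of the paired GENCODE transcript on a log axis, shRBMS1 left and shControl right. Filled points are transcripts in both tables, open points those in the table shown alone, and black lines are medians of the length classes. The shortest class has medians of 1.10 in shRBMS1 and 0.90 in shControl cells, the longest −0.02 and 0.04.

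Within each length class, transcripts with a polyadenylation signal had the higher median in both tables. In the shortest class these medians were 1.39 with and 0.26 without a signal in shRBMS1 cells, over 28 and 11 transcripts, and 0.93 and 0.33 in shControl cells, over 21 and 13. In the longest class they were 0.38 and −0.19 in shRBMS1 cells, and 0.14 and −0.21 in shControl cells. The middle class had 0.45 and −0.02 in shRBMS1 cells and 0.15 and 0.02 in shControl cells. Listing differed too, with 46.1% of transcripts with a signal and 30.4% of those without in a single table. Among transcripts in both tables, over all lengths, the medians were 0.41 with and −0.07 without a signal in shRBMS1 cells. In shControl cells they were 0.32 and −0.05. The medians within length classes were not taken on that subset.

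The pentamer ATTTA, the core of AU-rich elements that bind decay factors in mRNAs, was found in 85 of 148 LINC transcripts (57.4%), beside 54.1% of all noncoding and 75.6% of coding ones. Its density was 1.5 per kb in LINC transcripts and 1.31 in coding ones. LINC transcripts that hold it had a median length of 1521 bases and those that do not 593, and the part of length was not tested. Those that hold it had medians of 0.40 in shRBMS1 and 0.16 in shControl cells, and those that do not 0.46 and 0.20. Among transcripts in both tables the order turned in shRBMS1 cells, with 0.28 for those that hold it and 0.17 for those that do not, and in shControl cells the medians were 0.13 and 0.17. For coding mRNAs the medians were −0.10 with and 0.13 without ATTTA in shRBMS1 cells, a wider gap. ATATA, another AU-rich word, was in 74 of 148 LINC transcripts, beside 44.7% of all noncoding and 63.8% of coding ones. Transcripts with ATATA were also the longer ones, with a median length of 1534 bases against 632. The median values were 0.48 with and 0.35 without ATATA in shRBMS1 cells, and 0.07 and 0.35 in shControl cells. Among transcripts in both tables they were 0.17 and 0.18 in shRBMS1 and 0.14 and 0.16 in shControl cells, so the gaps rested on transcripts listed in a single table.

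Most members lay between coding genes, as their name says. Of 178 genes, 19 overlapped the body of a coding gene, 23 lay within 5 kb of one and 58 lay over 100 kb away. The median distance was 38.3 kb and the largest 1605 kb for LINC00613. The 19 take in LINC00672, counted against LASP1NB, the RefSeq entry of the same gene, and LINC02210, counted against LINC02210-CRHR1. Exons of 13 transcripts from 10 genes overlapped a coding exon on either strand, or their gene span did where no exons could be read. These 13 had medians of −0.63 over 9 values in shRBMS1 and −0.65 over 12 in shControl cells. None was at 1 or above, beside 8.65% and 8.32% of all transcripts, and so few values could hold none at that share. At −1 or below were 4 of 9 in shRBMS1 and 4 of 12 in shControl cells, beside 12.9% and 13.8%. Of the 13, 4 were transcripts of a single gene, LINC00339, counted by gene span. They were at −3.69 and −0.33 in shRBMS1 and at −5.08, −2.82, −0.60 and 0.52 in shControl cells. No median with 1 value per gene was taken for this class. The other 189 had medians of 0.44 over 152 and 0.19 over 151.

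Distance from coding genes ran the same way. Transcripts of loci overlapping or within 5 kb of a coding gene had medians of 0.00 over 36 in shRBMS1 and 0.03 over 38 in shControl cells. Between 5 and 100 kb the medians were 0.34 over 72 and 0.07 over 83, and beyond 100 kb 0.65 over 53 and 0.57 over 42. The far loci gave shorter transcripts, with a median of 625 bases against 1424 for the near ones, and 31 of 63 far transcripts were in a single table. Signs were also set beside those of the nearest coding gene. In loci without overlap the LINC gene and its neighbour had the same sign in 38 of 83 pairs in shRBMS1 and 41 of 88 in shControl cells. Where gene bodies overlapped these counts were 5 of 8 and 2 of 9. Over the pairs without overlap the LINC medians were 0.17 in shRBMS1 and 0.08 in shControl cells, and the coding medians −0.29 and −0.33. Medians on opposite sides of 0 lower the count of shared signs, so whether neighbours ran together was not tested.

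Some LINC genes lie next to each other, and 11 pairs were within 100 kb. LINC01732 and LINC01699 lie 54.2 kb apart on the plus strand of chromosome 1 (181174484 to 181182208 and 181236388 to 181238604). They were at 1.65 and 1.60 in shRBMS1 and at −0.46 and −0.55 in shControl cells by the authors' deposited tables, so both stood on opposite sides of 0 in the cell populations. LINC00673 and LINC00511, neighbours on chromosome 17 5.24 kb apart, were at −0.46 and −0.56 in shRBMS1 and −0.49 and −0.28 in shControl cells by the authors' deposited tables. The pair LINC00526 and LINC00667 starts on opposite strands of chromosome 18 and differed within each cell population. LINC00526 was at −0.40 in shRBMS1 and −1.40 in shControl cells by the authors' deposited tables, and LINC00667 at 0.63 and 0.68.

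The question of the series, whether stability differed on RBMS1 knockdown, was put to the 122 LINC transcripts in both tables. The centred difference is the shRBMS1 value minus the shControl value, less the median of all transcripts (−0.0182). Its LINC median was 0.05, with quartiles of −0.39 and 0.49, beside quartiles of −0.26 and 0.30 for all transcripts. It was 1 or more for 17 LINC transcripts (13.9%), beside a background of 8.98%, and −1 or less for 14 (11.5%), beside 8.65%. With 1 value per gene, 10 of 108 LINC genes (9.26%) were at 1 or more and 11 (10.2%) at −1 or less. Also with 1 value per gene, these shares were 9.73% and 10.4% of all noncoding genes and 4.89% and 4.16% of all genes. The 122 LINC transcripts came from 108 genes, and the 19334 transcripts over all from 12479 named genes. Averaging over more transcripts of a gene narrows its value, so the shares of LINC and of all genes are not on an equal footing. Per gene, the LINC shares were thus near those of noncoding genes. Per transcript, the LINC differences were wider on both sides than over all transcripts, and their median was near 0. Their interquartile range of 0.88 was near the 0.81 of all noncoding accessions and above the 0.70 of antisense and the 0.53 of coding transcripts. No single difference could be called.

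**Figure D4:**
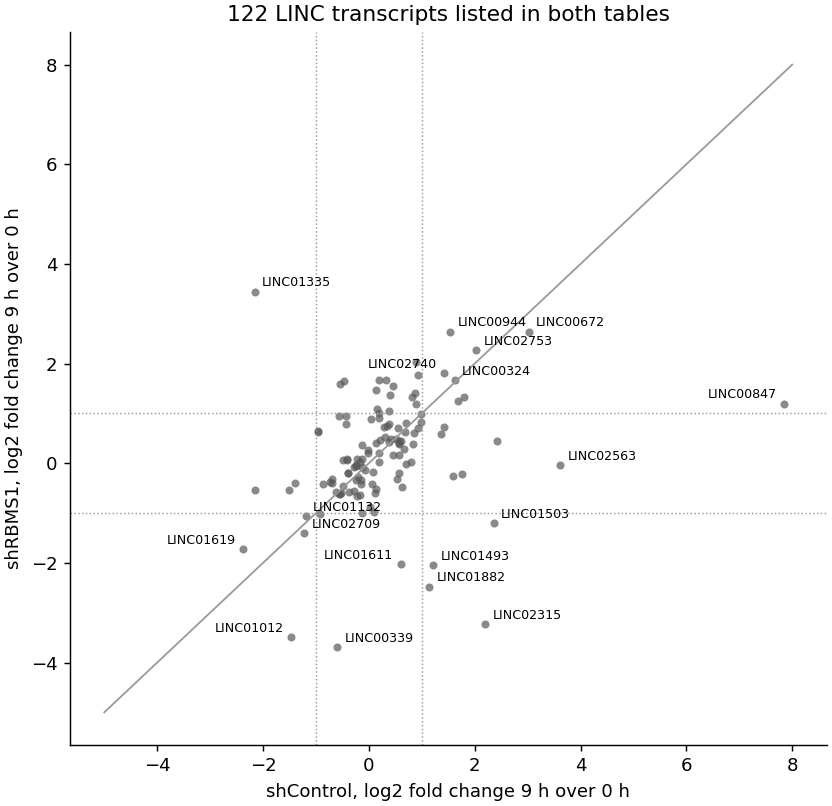
Log2 fold change (9 h over 0 h) of the 122 LINC transcripts in both tables, shRBMS1 on the vertical and shControl on the horizontal axis, with the line of equal values and dotted lines at 1 and −1. Most points lie near the line, 68 with a centred difference under 0.5 in size, and LINC01335 at 3.45 and −2.15 stands on the side of shRBMS1.

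The largest difference was that of LINC01335 (chromosome 5, 74306410 to 74308325), a transcript of 389 bases, at 3.45 in shRBMS1 and −2.15 in shControl cells by the authors' deposited tables, with a centred difference of 5.62. LINC01699 and LINC01732 followed with centred differences of 2.17 and 2.13. Next came transcripts of LINC00680, LINC00847, LINC01503 and LINC02210, at 1.63, 1.63, 1.60 and 1.54, and LINC01730, at 1.51. LINC01730 lies 2.38 kb from CDC25B, a phosphatase gene of the cell cycle, and was at 1.68 in shRBMS1 and 0.19 in shControl cells by the authors' deposited tables.

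On the other side, a transcript of LINC00847 had a centred difference of −6.63, and LINC02315 was at −3.23 in shRBMS1 and 2.20 in shControl cells by the authors' deposited tables, with a centred difference of −5.42. LINC02563, a transcript of 277 bases 70.2 kb from AXIN2, was at −0.04 in shRBMS1 and 3.61 in shControl cells by the authors' deposited tables, with a centred difference of −3.64. LINC01882 (−3.60), a transcript of LINC01503 (−3.55), LINC01493 (−3.25), a transcript of LINC00339 (−3.07) and LINC01611 (−2.61) completed the 8 smallest centred differences. LINC01493 was at −2.05 in shRBMS1 and 1.21 in shControl cells by the authors' deposited tables, and its neighbour 2.5 kb away is LINC02759, the transcript at the limit of the shRBMS1 table.

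At the other extreme, 68 of 122 transcripts (55.7%) had a centred difference under 0.5 in size, beside 66.4% of all transcripts. For 18 transcripts of as many genes it was under 0.1. Among them, LINC01138 was at 0.99 in shRBMS1 and 0.98 in shControl cells by the authors' deposited tables, LINC00963 at −0.61 and −0.56, LINC00673 at −0.46 and −0.49, LINC00667 at 0.63 and 0.68 and LINC01234 at −0.14 and −0.08.

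Of 24 LINC genes described in cancer and followed whatever their values, 15 were listed. LINC00460, reported at high levels in colorectal and other carcinomas, was at 0.89 in shRBMS1 and 0.04 in shControl cells by the authors' deposited tables, 0.87 apart once centred. LINC00941, also described in colorectal cancer, was at 0.75 and 0.34. LINC00467, whose RNA has been reported to encode a small mitochondrial peptide in colorectal cancer, was at 0.38 in shRBMS1 and 0.83 in shControl cells by the authors' deposited tables. LINC00511 was at −0.56 and −0.28, LINC00857 at −0.03 and −0.24, and LINC00662 at 0.41 and 0.13. The transcripts of LINC00659 were at −0.66 and 0.02 in shRBMS1 and −0.23 and −0.16 in shControl cells by the authors' deposited tables. LINC00641 at 1.09 and LINC01278 at −0.33 were listed for shControl alone by the authors' deposited tables. With the exception of transcripts of LINC00339 and LINC01503, every one of the fixed genes listed in both tables lay between −1 and 1 in each.

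Several transcripts were listed for 15 of the 178 genes, and their values could lie far apart. The range over the transcripts of a gene had a median of 1.66 over 13 genes in shRBMS1 and 1.81 over 14 genes in shControl cells, beside 1.10 and 1.11 over all genes with several transcripts. It was 1 or more in 11 of 13 LINC genes (84.6%) in shRBMS1 and 10 of 14 (71.4%) in shControl cells, beside 53.5% and 53.8% of all such genes and 62.2% and 57.9% of noncoding ones. Transcripts stood on both sides of 0 in 11 LINC genes of shRBMS1 and 10 of shControl cells, beside 59.8% and 58.4% of all such genes. Of 12 LINC genes with several transcripts in both tables, 7 (58.3%) had them in the same order in each, beside 47.3% of all such genes and 54.5% of noncoding ones, which differ in how many transcripts they have.

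LINC00339 lies on chromosome 1 (22025191 to 22031224), and its gene span holds an exon of a coding gene. It had transcripts at −3.69 and −0.33 in shRBMS1 cells in the authors' deposited table. Its 4 transcripts in the authors' deposited table for shControl were at −5.08, −2.82, −0.60 and 0.52. In both cell populations the transcript NR_109761 was below NR_023919. LINC01012 had the same order in both, with NR_038293 at −3.50 in shRBMS1 and −1.47 in shControl cells and NR_038294 at 1.05 and 0.39 by the authors' deposited tables.

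LINC00847, which overlaps the gene body of ZFP62, gave the widest range. Its transcript NR_045678 was at 1.20 in shRBMS1 and 7.85 in shControl cells by the authors' deposited tables, and NR_027183 at −0.54 and −2.15, the same order in both but a range of 1.74 in shRBMS1 and 10.0 in shControl cells. LINC01503, described in squamous cell carcinoma, had the opposite order in the tables. Its transcript NR_120685 was at 0.62 in shRBMS1 and −0.97 in shControl cells by the authors' deposited tables, and NR_120686 at −1.21 and 2.36. How the authors' tools divided reads between overlapping transcripts of a gene is not stated, and their part in these values was not tested.

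**Figure D5:**
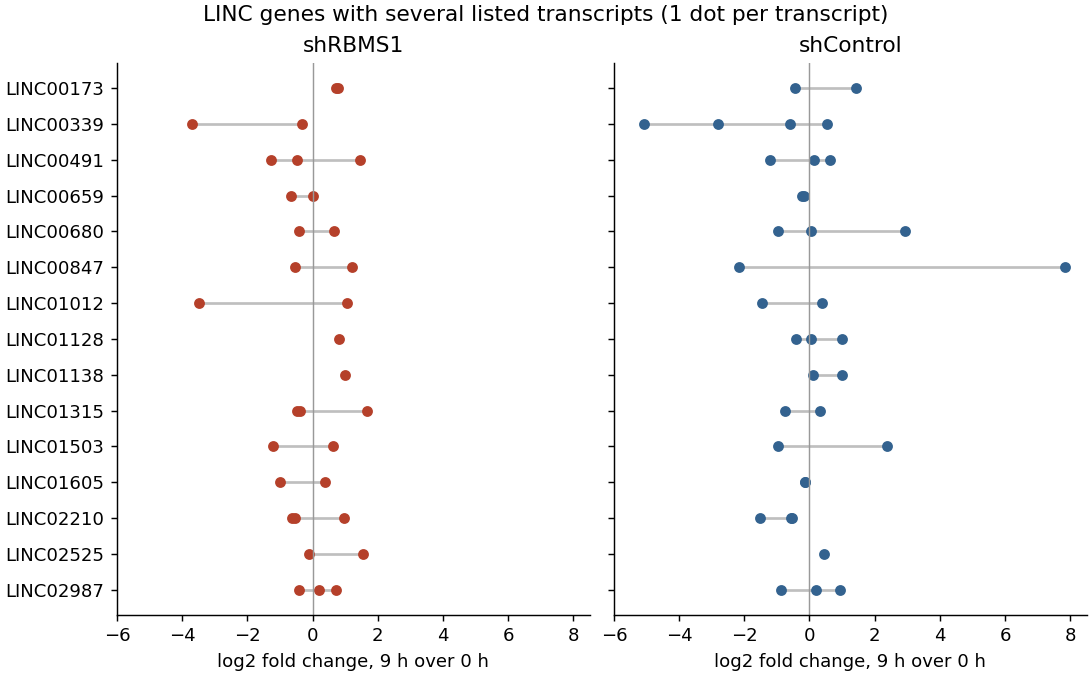
Log2 fold change (9 h over 0 h) of each listed transcript of the 15 LINC genes with several, shRBMS1 left and shControl right, 1 dot per transcript and a line over the range of a gene. The dots of LINC00847 span 1.74 in shRBMS1 and 10.0 in shControl cells, and those of LINC00339 3.37 and 5.60.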

How the data were processed

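Total RNA of 8 libraries was depleted of ribosomal RNA and per the labels' protocols, and ScriptSeq v2 libraries were sequenced. Per the submitters' processing notes, which give no roles, the tools were STAR 2.5, Cufflinks and Cuffdiff and the build was hg38. The authors made and deposited 2 tables of log2 fold changes, 1 value per RefSeq transcript, computed with the libraries of a group combined and headed logFC per the file headers. These values were taken as log2 because Cuffdiff writes log2, and as 9 h over 0 h because MYC, FOS and JUN are negative. Neither is in the file headers, and no source used here gives filters or normalization. All values lie within 10 in size. Depth is unknown.

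Symbols came from the RefSeq gene table (GRCh38.p14; 22132 accessions) and then GENCODE release 29 (204 accessions), and 132 accessions had none. Of the members, 148 were paired with a GENCODE transcript (GRCh38, the assembly of hg38) that no other accession shares, and lengths, exons and sequences came from it. Gene positions came from RefSeq. One 3′ end sequence is not reported here. Values stayed per transcript, the difference was centred on all transcripts in both tables, and no test was run, since no values per library were given. Counting was checked on simulated data. The members, gene lists and features were chosen with earlier results of these data known, and the polyadenylation signal, distance classes and pairs of neighbours after the values were seen. Named transcripts were the 10 lowest and 10 highest by mean, the 8 largest and 8 smallest differences, the 3 lowest and 3 highest in a single table, those near the limits and a fixed list of 24 genes. Analyses used Python 3.11.15, pandas 2.3.3 and numpy 2.4.6.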

Additional observations from a re-analysis of the deposited data

How the results depend on the processing

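No paired analysis was possible because the deposited tables hold no values per library, and for the same reason no replicate could be left out. Of 9 counts and medians, those that an alternative can touch were recomputed (3 to 9 of them), with medians taken as moved beyond 0.05. Relative to ribosomal protein mRNAs, the LINC median was 0.02 in shRBMS1 and −0.26 in shControl cells, which changed sign because 1 constant is taken from every value, with 29 transcripts at 1 or above in shRBMS1 and 28 at −1 or below in shControl cells. Among transcripts in both tables the shRBMS1 median was 0.17 with 24 (19.7%) at 1 or above, beside 7.13% of all transcripts. In shControl cells 18 (14.8%) were at 1 or above, beside 6.63%, and 8 (6.56%) at −1 or below, beside 12.2%. With 1 value per gene, 10 of 108 centred differences (9.26%) were 1 or more, beside 9.73% of noncoding genes and 4.89% of all genes. The latter average over more transcripts each. At a size of 0.58 there were 27 low in shRBMS1 and, in shControl cells, 28 low and 53 high, with 24 low differences. At a size of 2 there were 6 low and 14 high in shRBMS1, 8 low and 13 high in shControl cells, and 9 low and 3 high differences. Shares over all transcripts are not given for either of these sizes, so the counts cannot be set against a background. Fewer transcripts or another limit set these counts by construction. Without coding exon overlaps, without values over 5, with RefSeq symbols alone, centred on all transcripts, not centred, or without the readthrough LINC00680-GUSBP4 (chosen after seeing the data), each result computed kept its sign and stayed within 1.5 times its count or 0.05 of its median. Of 32 medians by feature class, 20 moved by over 0.05 when restricted to transcripts in both tables. None past 0 by 0.01 or more changed sign, and the shControl median without a polyadenylation signal was −0.05 there, beside 0.00 over all. Unknown depth limits every single value.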
